A study of Mus musculus with 24 samples.

Results

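The semaphorins, plexins and neuropilins are a family of guidance ligands and their receptors, and Plxnd1, which encodes plexin D1, is the member that was called different in the most comparisons of epididymal white adipose tissue (eWAT). Members were taken as every gene of the deposited table whose symbol begins with Sema3 to Sema7 or Plxn, or is Nrp1 or Nrp2. This gave 31 of 16730 genes: 20 semaphorins, 9 plexins and 2 neuropilins. Of these, 29 had a level of at least 1 CPM (counts scaled to library size) in at least 3 mice and were tested with 15020 genes in all. Sema4f and Sema4g, with 72 and 87 counts over all libraries, were below that level and are described by their levels only.

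Semaphorins were first known as cues that steer growing axons and are now also known from vessels, immune cells and fat. Class 3 semaphorins are secreted, classes 4 to 6 span the membrane and Sema7a is held to it by a lipid anchor. Plexins are the signalling receptors: their inner part acts on small GTPases of the Ras and Rap families, so that a semaphorin changes adhesion and the actin cytoskeleton of the cell that carries the plexin. Most class 3 semaphorins need a neuropilin as the binding co-receptor, and neuropilins also bind vascular endothelial growth factors. Sema3e is the exception, since it binds plexin D1 directly. Plexin D1 is best known from endothelial cells, where it holds back vessel growth.

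RNA was from the eWAT of 24 male mice on a C57BL/6J background, 6 in each of 4 groups, collected at 24 to 26 weeks of age after 20 weeks on diet. The study describes its chow-fed mice up to 24 weeks and its HFD-fed mice up to 26 weeks of age, so that diet and age cannot be told apart in the diet comparisons. The chow was a LabDiet product and the high-fat diet (HFD) had 45% of its energy as fat. All mice carried Lama4 alleles with exon 3 floxed. Lama4 fl/fl mice had no Cre, and Lama4 AKO littermates carried Cre driven by the adiponectin promoter, which is active in adipocytes, so that other cells of the tissue keep the laminin α4 gene. Genotype is used here as labelled. The QuantSeq assay reads 1 fragment from the 3′ end of a transcript, outside the floxed exon, and so does not show whether that exon is present. How loss of the exon bears on the 3′ level of Lama4 was not tested. Lama4 was at 6.44 ± 0.75 log2 CPM in chow-fed Lama4 fl/fl mice and 6.69 ± 0.41 in chow-fed mice labelled Lama4 AKO (SD, n = 6 each; two-sided exact permutation p = 0.511), and at 6.20 ± 0.81 and 5.61 ± 0.46 on HFD (exact p = 0.143, and exact p = 0.881 with a difference of 0.07 without the 5 libraries described next).

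Library totals were between 5579590 and 18764516 counts. The first principal component held 45.8% of the variance, and HFD-fed Lama4 fl/fl mice 3, 4 and 6 were at -9.88, -76.1 and -60.4 on it while the other mice of that group were between 48.2 and 73.5. The study removed outlier libraries without naming them in its text. An earlier analysis inferred 5 (chow-fed Lama4 fl/fl mouse 3, chow-fed Lama4 AKO mouse 5 and those 3 HFD-fed Lama4 fl/fl mice), and values without them are given beside those with all libraries where a call was gained or lost, or where a member named in a comparison lost its unadjusted p of at most 0.05. The chow-fed mice among them were at 46.8 and 22.1 on the first component. Their groups otherwise lay between -91.8 and 6.18 and between -74.8 and 2.95. All 5 thus lay toward the values of the other diet, and leaving them out tends to widen diet differences. Diet values without them are no independent check of those with all libraries. All 10 adipocyte, 10 macrophage and 10 endothelial markers listed were detected. Of 8 epididymis markers 2 were in the table, summing to at most 17.3 CPM in a library.

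Because QuantSeq yields 1 fragment per transcript, levels of different genes are compared here as CPM without dividing by gene length. Nrp1, the neuropilin that binds Sema3a and the vascular endothelial growth factor VEGF-A, was the most abundant member, with a median over the 24 mice of 538 CPM and a range of only 415 to 646 CPM. Nrp2, the neuropilin that binds Sema3f and Sema3g, followed at a median of 160 CPM but ranged from 51.3 to 308 CPM. Among plexins the median was 96.4 CPM for Plxnb2, 50.7 for Plxna1, 42.9 for Plxnd1, 25.5 for Plxna2, 16.0 for Plxnc1, 15.3 for Plxna4, 3.73 for Plxna3, 2.37 for Plxnb1 and 0.566 for Plxnb3.

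The ligands were lower than the leading receptors. Sema3c was the most abundant semaphorin at a median of 35.2 CPM, close to Sema4d at 34.4 and Sema6a at 31.5. Sema3g, Sema5a, Sema4a, Sema4c and Sema4b had medians of 19.1, 18.3, 18.1, 18.0 and 14.5 CPM, and Sema6b, Sema7a, Sema6d, Sema3f, Sema3b and Sema3d lay between 9.05 and 2.74 CPM. The medians of Sema3a, Sema6c, Sema5b and Sema3e were 1.44, 1.24, 1.11 and 0.745 CPM. Sema3e, the ligand with direct affinity for plexin D1, had between 2 and 87 counts in a library. Sema4f was at 0 counts in 2 libraries and Sema4g in 4, where a count of 0 allows up to 3 counts of the library.

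**Figure D1:**
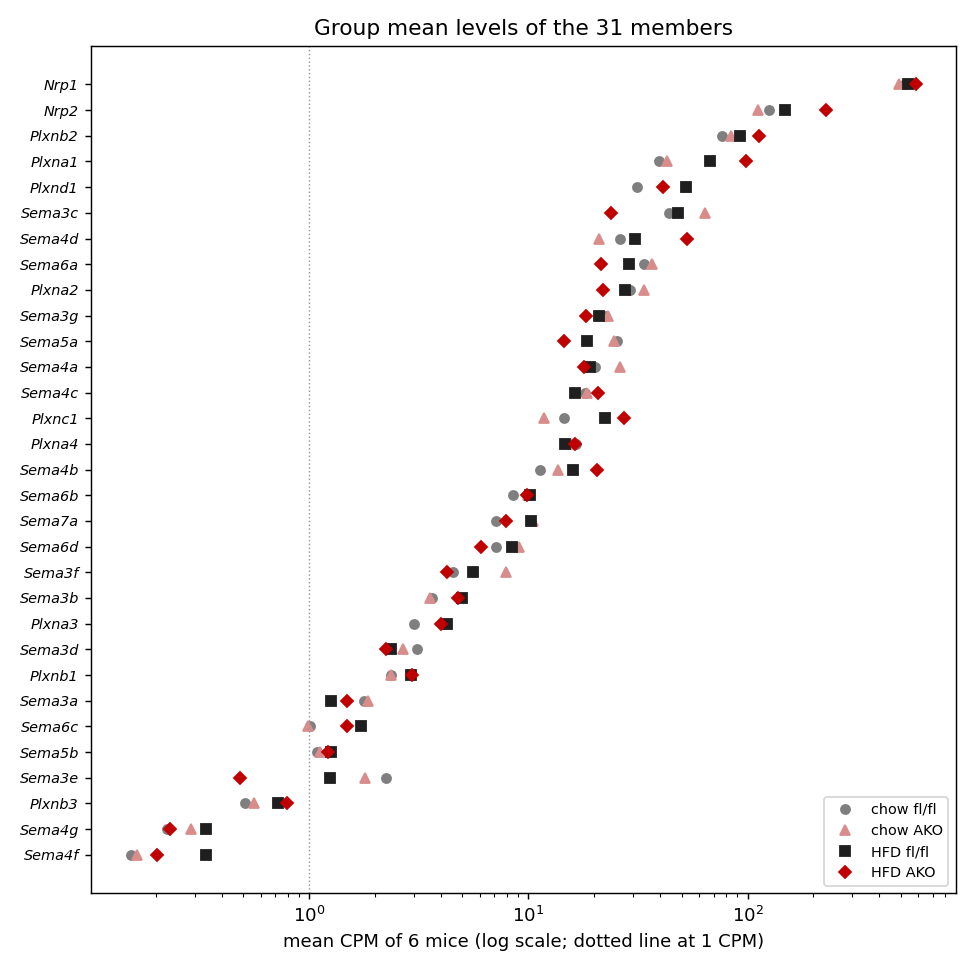
Group mean level of each of the 31 members in CPM on a log axis, ordered by the median over all mice; each symbol is the mean of 6 mice of a group. Nrp1 lies far to the right with its 4 symbols nearly together, while Sema3c, Sema4d, Plxna1, Plxnc1 and Sema3e have the symbols of the 4 groups spread apart.

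Members differed widely in how much mice of a group varied. The within-group SD on the log2 scale was 0.161 for Nrp1, 0.203 for Sema4c and 0.254 for Plxnd1, the 3 lowest of the 31. It was 1.17 for Sema4d and 1.16 for Sema3e, the 2 highest, and 0.806 for Plxnc1, 0.658 for Plxna1, 0.645 for Sema3c and 0.644 for Nrp2.

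Plxnd1 (chr6:115954811-115995005, minus strand, GRCm38) was lowest in chow-fed Lama4 fl/fl mice. Its level there was 20.3 CPM in the lowest mouse, 32.8 at the median and 36.5 in the highest. In chow-fed mice labelled Lama4 AKO it was 36.7, 52.6 and 68.0 CPM, and in HFD-fed Lama4 fl/fl mice 46.9, 52.5 and 60.3 CPM. In HFD-fed mice labelled Lama4 AKO it was 35.0, 41.8 and 48.7 CPM. Thus neither the chow-fed Lama4 AKO nor the HFD-fed Lama4 fl/fl mice overlapped with the chow-fed Lama4 fl/fl mice, although the highest of these at 36.5 CPM lay just under the lowest Lama4 AKO mouse at 36.7 CPM. The share of all genes without overlap in these pairs of groups was not computed, so the separation is a description of Plxnd1 only. By group mean the order was 31.2 ± 5.61 CPM (chow, fl/fl), 41.1 ± 4.93 (HFD, AKO), 52.5 ± 12.4 (chow, AKO) and 52.6 ± 4.73 (HFD, fl/fl; SD, n = 6 each), and the last pair did not differ beyond their spread.

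A gene was called where the fold change was at least 1.5, the nominal p at most 0.001 and the mean of the higher group at least 2 CPM, the criteria of the study. Plxnd1 was called in 3 comparisons. HFD against chow in Lama4 fl/fl mice gave a log2 fold change of 0.72 ± 0.146 (SE; 1.65-fold, edgeR adjusted p = 0.239), the third lowest p of the 15020 genes. Lama4 AKO against Lama4 fl/fl on chow gave 0.74 ± 0.146 (1.67-fold, edgeR adjusted p = 0.278), the lowest p of all genes. Both comparisons share the chow-fed Lama4 fl/fl mice. With all libraries no edgeR adjusted p of Plxnd1 reached 0.05. Nor did limma-voom reach it, with adjusted p = 0.273 for diet in Lama4 fl/fl and adjusted p = 0.195 for genotype on chow. DESeq2 alone did, with adjusted p = 0.00223 for diet in Lama4 fl/fl and adjusted p = 0.00244 for genotype on chow. Without the 5 libraries the edgeR adjusted p was 0.00751 for diet in Lama4 fl/fl and 0.259 for genotype on chow. The unadjusted edgeR p for diet in Lama4 fl/fl rose in that setting, from 4.76e-05 to 0.000924. There 11.8% of all genes were called for diet in Lama4 fl/fl, against 0.173% with all libraries.

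The diet difference of Plxnd1 had opposite signs in the 2 genotypes. In mice labelled Lama4 AKO, HFD against chow gave -0.35 ± 0.146 (SE; edgeR adjusted p = 0.078), and on HFD the difference of Lama4 AKO against Lama4 fl/fl was -0.34 ± 0.146 (edgeR adjusted p = 0.309). The interaction, which is the diet difference in Lama4 AKO minus that in Lama4 fl/fl, was -1.08 ± 0.206 (edgeR adjusted p = 0.123, limma-voom adjusted p = 0.095, DESeq2 adjusted p = 0.000485) and was called, again with the third lowest p of all genes. The interaction had an edgeR adjusted p of 0.115 without the 5 libraries. Averaged over genotypes the diet difference was 0.19 ± 0.103 (edgeR adjusted p = 0.193).

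Two-sided exact permutation tests on log2 CPM of Plxnd1 alone gave p = 0.00216 for diet in Lama4 fl/fl mice and for genotype on chow, the smallest value that 6 against 6 mice allow. Neither pair of groups overlapped, which by itself gives that value, and Plxnd1 was chosen with earlier results of these data known. The exact p-values thus describe its levels and are no added evidence. The same test gave exact p = 0.00433 for genotype on HFD and exact p = 0.0779 for diet in mice labelled Lama4 AKO. Without chow-fed Lama4 fl/fl mouse 1, whose 20.3 CPM stood below the rest of its group, the 3 called differences were 0.63, 0.65 and -0.98 and were still called. Leaving out each mouse in turn kept them between 0.63 and 0.77, 0.65 and 0.82, and -1.16 and -0.98, and without the 5 libraries they were 0.75, 0.80 and -1.15. The exact permutation p without those libraries was 0.0179 for diet in Lama4 fl/fl and 0.00794 for genotype on chow, each the smallest that the remaining mice allow, and 0.0563 and 0.0238 for diet in Lama4 AKO and genotype on HFD.

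**Figure D2:**
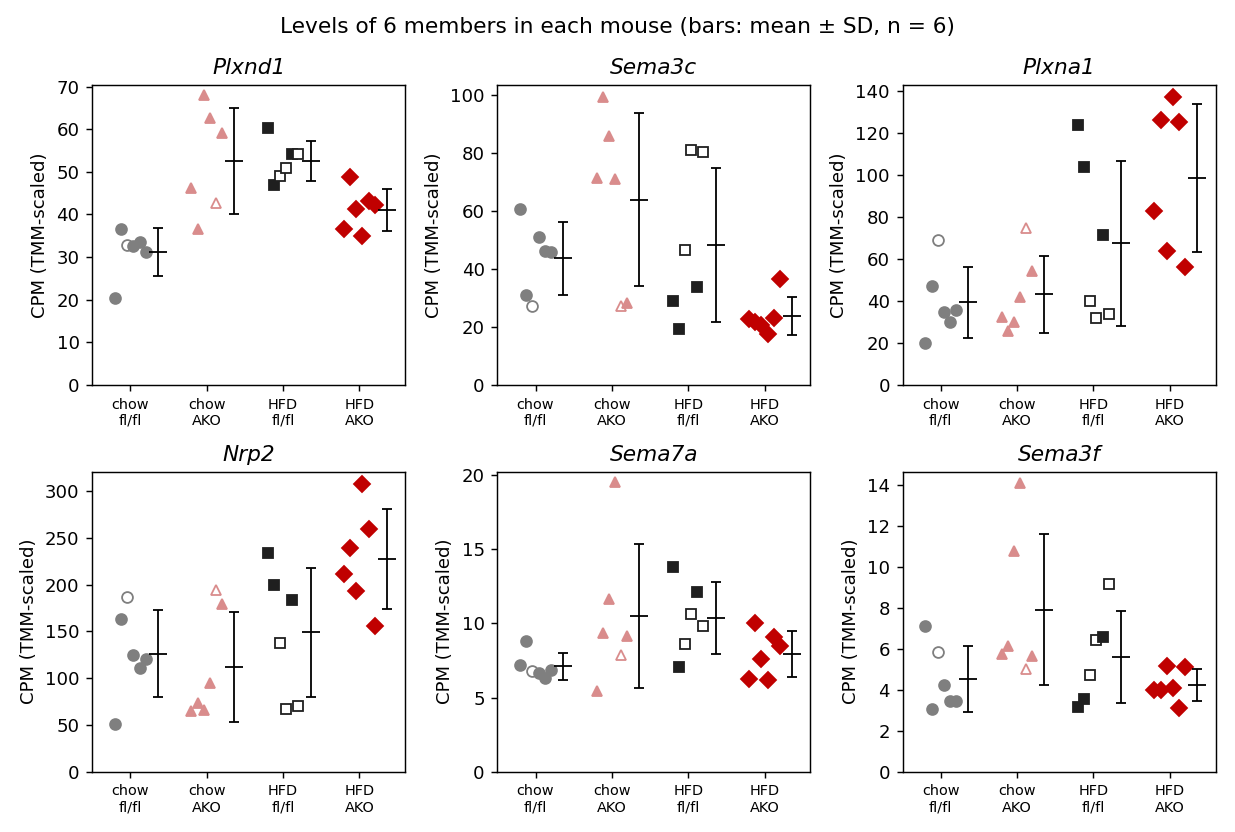
Level of Plxnd1, Sema3c, Plxna1, Nrp2, Sema7a and Sema3f in CPM in each of the 24 mice by group, with the group mean and SD as bars; open symbols are the 5 libraries that an earlier analysis took as removed by the study. For Plxnd1 every chow-fed Lama4 fl/fl mouse lies at or below 36.5 CPM, under all mice of the groups chow AKO and HFD fl/fl, while for Sema3c the HFD-fed Lama4 fl/fl mice are split between 19.2 and 80.9 CPM.

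Sema7a, a membrane-anchored semaphorin that binds plexin C1 and integrins, and Sema3f, a secreted ligand of neuropilin 2, had the signs of Plxnd1 in all 4 diet and genotype comparisons, with wider spread, as did Sema3c, Sema6d, Plxna3 and Sema6b. These comparisons share groups, and the share of all genes with the same 4 signs was not computed. Some of these differences were within 1 SE of 0. Sema6b was at -0.02 and Plxna3 at -0.10 for diet in Lama4 AKO. For genotype on HFD they were at -0.03 and -0.07, and Sema3c was at 0.12 for diet in Lama4 fl/fl. Without the 5 libraries Sema3f was at 0.01 for diet in Lama4 fl/fl and -0.02 for genotype on HFD. In that setting Sema3c at -0.83 for diet in Lama4 fl/fl and Plxna3 at 0.23 for genotype on HFD had the opposite sign. Sema7a, Sema6d and Sema6b kept all 4 signs. Sema7a was at 6.28, 6.83 and 8.79 CPM (lowest, median, highest) in chow-fed Lama4 fl/fl mice and at 5.44, 9.24 and 19.5 CPM in chow-fed Lama4 AKO mice. On HFD it was at 7.06, 10.2 and 13.8 CPM in Lama4 fl/fl and at 7.92 ± 1.56 CPM (SD, n = 6) in Lama4 AKO mice. The groups overlapped in each comparison.

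The interaction for Sema7a was -0.92 ± 0.318 (SE; edgeR adjusted p = 0.25), with 0.52 ± 0.224 for diet in Lama4 fl/fl (adjusted p = 0.516) and 0.55 ± 0.225 for genotype on chow (adjusted p = 0.811). Sema3f had an interaction of -1.18 ± 0.406 (edgeR adjusted p = 0.25), 0.80 ± 0.287 for genotype on chow (adjusted p = 0.772) and -0.89 for diet in Lama4 AKO mice, given below with the other genes of that comparison. Sema3c and Sema6d, a ligand of plexin A1, also had interactions with an unadjusted p of at most 0.05, at -1.55 ± 0.488 (edgeR adjusted p = 0.239) and -0.80 ± 0.325 (adjusted p = 0.273). With the 5 libraries left out the interactions of Sema7a, Sema3f, Sema3c and Sema6d were -1.04, -0.99, -0.74 and -0.83, and that of Sema3c no longer had an unadjusted p of at most 0.05.

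In total 5 of 29 members had an unadjusted interaction p of at most 0.05, all with a negative sign, against 15.6% of all genes tested. The called share was 1 of 29 against 0.386% of all genes. On chow the unadjusted genotype p was at most 0.05 for 4 of 29 members, all higher in Lama4 AKO mice, against 5.85% of all genes, and 1 of 29 was called against 0.113%. The fourth was Plxna3, a receptor for class 3 semaphorins, with 0.50 ± 0.221 (edgeR adjusted p = 0.831). Between genotypes on chow 1 of 10 adipocyte markers was higher and 1 of 10 stromal progenitor markers lower at an unadjusted p of at most 0.05, and none of 10 macrophage or 10 endothelial markers reached it. The family was assembled with the values of Plxnd1 known, so these shares describe it and are no evidence about it.

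The 250 bases of the reference genome upstream of the RefSeq start of Plxnd1 and Sema7a are shown because these were the only members with an unadjusted p of at most 0.05 for diet in Lama4 fl/fl, for genotype on chow and for the interaction. They are on build GRCm38.p6, written 5′ to 3′ on the strand of the gene, at chr6:115995006-115995255 on the minus strand and chr9:57939862-57940111 on the plus strand. Capitals mark GC boxes (GGGCGG on either strand), the site known to bind Sp1 and related factors.
Plxnd1: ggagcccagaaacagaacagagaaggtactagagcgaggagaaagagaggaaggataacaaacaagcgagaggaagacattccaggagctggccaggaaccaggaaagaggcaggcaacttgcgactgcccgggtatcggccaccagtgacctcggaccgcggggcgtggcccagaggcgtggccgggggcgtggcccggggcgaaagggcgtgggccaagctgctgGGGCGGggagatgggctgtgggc
Sema7a: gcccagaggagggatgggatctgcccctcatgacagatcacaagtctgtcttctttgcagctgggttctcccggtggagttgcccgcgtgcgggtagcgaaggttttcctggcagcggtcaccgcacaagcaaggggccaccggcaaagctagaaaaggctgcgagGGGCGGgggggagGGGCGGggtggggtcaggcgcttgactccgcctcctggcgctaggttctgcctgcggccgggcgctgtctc
The Plxnd1 stretch was 64.8% G and C with 1 GC box, and that of Sema7a 66.4% with 2. Neither held the E box CACGTG, the cAMP response element, the core of the hypoxia response element or the TATA box on either strand.

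RefSeq promoters were matched by symbol for 26 of the 31 members, giving 37 promoters. Their median G and C content in the 250 upstream bases was 64.0%, against 52.4% for all 32851 promoters. A GC box was found in 27 of the 37 (73.0%), against 32.7% of all promoters. The E box was found in 2 of the 37 (5.41%) against 6.02% of all promoters, and the cAMP response element (TGACGTCA) in 0 of the 37 against 1.55%. The hypoxia response element core (ACGTG, also part of the E box) was found in 7 of the 37 (18.9%) against 16.6%, and the TATA box (TATAAA) in 0 of the 37 against 12.4%. Several promoters belong to the same gene, and no test was made of these shares.

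The diet comparison in mice labelled Lama4 AKO held the most members with a low p. Here 14 of 29 members had an unadjusted p of at most 0.05, 6 higher and 8 lower on HFD, against 39.8% of all genes. An adjusted p of at most 0.05 was reached by 5 of 29 members, 3 higher and 2 lower, against 22.1% of all genes, and 1 of 29 was called against 4.12%. The members' shares were 48.3%, 17.2% and 3.45%, so that only the first lay above that of all genes. The receptors that rose were Plxna1, Nrp2 and Plxnc1 and the ligands that fell were Sema3c and Sema3f. The median log2 fold change was 0.33 over the 11 plexins and neuropilins tested and -0.32 over the 18 semaphorins, beside -0.003 over all genes.

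Sema3c (chr5:17574281-17730268), a secreted ligand of both neuropilins that is also known as an adipokine, had the lowest p of the family here. It was at 27.3, 71.1 and 99.3 CPM (lowest, median, highest) in chow-fed and 17.7, 22.3 and 36.5 CPM in HFD-fed Lama4 AKO mice, with 4 of 6 chow-fed mice above every HFD-fed mouse. The log2 fold change was -1.42 ± 0.35 (SE; 0.373-fold, edgeR adjusted p = 0.0174), and it was called. Leaving out chow-fed Lama4 AKO mouse 1, 2 or 3 or HFD-fed Lama4 AKO mouse 2, 3 or 4 gave -1.41 to -1.25 with an unadjusted p just above 0.001, which ended the call, and limma-voom (-1.31) did not call it either. The edgeR adjusted p of Sema3c with any 1 mouse left out stayed at or below 0.0478.

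Plxna1 (chr6:89316314-89362620), a receptor for class 3 semaphorins with neuropilins and for Sema6d, was at 25.6, 37.1 and 74.6 CPM in chow-fed and 56.3, 104 and 137 CPM in HFD-fed Lama4 AKO mice. It rose by a log2 fold change of 1.19 ± 0.355 (SE; 2.28-fold, edgeR adjusted p = 0.0273), and was called at 1.41 without chow-fed Lama4 AKO mouse 5. Nrp2 (chr1:62703285-62818695) was at 65.1, 84.1 and 194 CPM on chow and 156, 225 and 308 CPM on HFD, and rose by 1.02 ± 0.341 (2.02-fold, edgeR adjusted p = 0.0383). Plxnc1 (chr10:94790866-94944835), the receptor of Sema7a, was at 6.46, 11.3 and 18.0 CPM on chow and 14.6, 27.1 and 40.4 CPM on HFD, and rose by 1.21 ± 0.417 (2.31-fold, edgeR adjusted p = 0.0418). The groups overlapped in all 3: chow-fed Lama4 AKO mouse 5 lay in the HFD range for Plxna1, and mice 5 and 6 did for Nrp2 and Plxnc1.

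Sema3f (chr9:107681500-107710475) was at 5.03, 5.95 and 14.1 CPM in chow-fed and 3.12, 4.04 and 5.16 CPM in HFD-fed Lama4 AKO mice, and fell by 0.89 on the log2 scale (SE 0.289, edgeR adjusted p = 0.0342). Among these 5 genes only Sema3c kept an adjusted p of at most 0.05 whichever mouse was left out. The adjusted p rose to at most 0.0676 for Plxna1 (lost without chow-fed Lama4 AKO mouse 1, 2 or 3 or HFD-fed Lama4 AKO mouse 2, 4 or 5), to 0.0951 for Nrp2, to 0.101 for Plxnc1 (both lost without any 1 of chow-fed Lama4 AKO mice 1 to 4 or HFD-fed Lama4 AKO mice 1 to 5) and to 0.0948 for Sema3f (lost without chow-fed Lama4 AKO mouse 1, 3 or 4 or HFD-fed Lama4 AKO mouse 1, 2, 4 or 5). When the 5 libraries were left out Sema3c was at -1.57, Plxna1 at 1.42, Nrp2 at 1.25 and Plxnc1 at 1.32, all 4 called as was Sema4b at 0.69, and Sema3f at -0.98 was not. In that setting 15.7% of all genes were called.

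The other members with an unadjusted p of at most 0.05 in this comparison did not pass the adjusted threshold. Toward HFD these were Sema4d, the ligand of B-type plexins also known as CD100 on immune cells, at 1.34 ± 0.567 (SE), Sema4b at 0.60 ± 0.222 and Nrp1 at 0.27 ± 0.124. Toward chow they were Sema3e at -1.89 ± 0.774, Sema5a at -0.75 ± 0.312, Plxna2, a receptor of Sema6a, at -0.62 ± 0.281, Sema6d at -0.58 ± 0.231, Sema4a at -0.55 ± 0.247 and Plxnd1. Their edgeR adjusted p lay between 0.054 and 0.112. Sema4d was at 5.31, 14.5 and 47.4 CPM on chow and 31.9, 52.9 and 74.8 CPM on HFD, and Sema3e was between 0.466 and 3.52 CPM on chow and between 0.167 and 0.795 CPM on HFD, where it had 2 to 9 counts in a library.

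**Figure D3:**
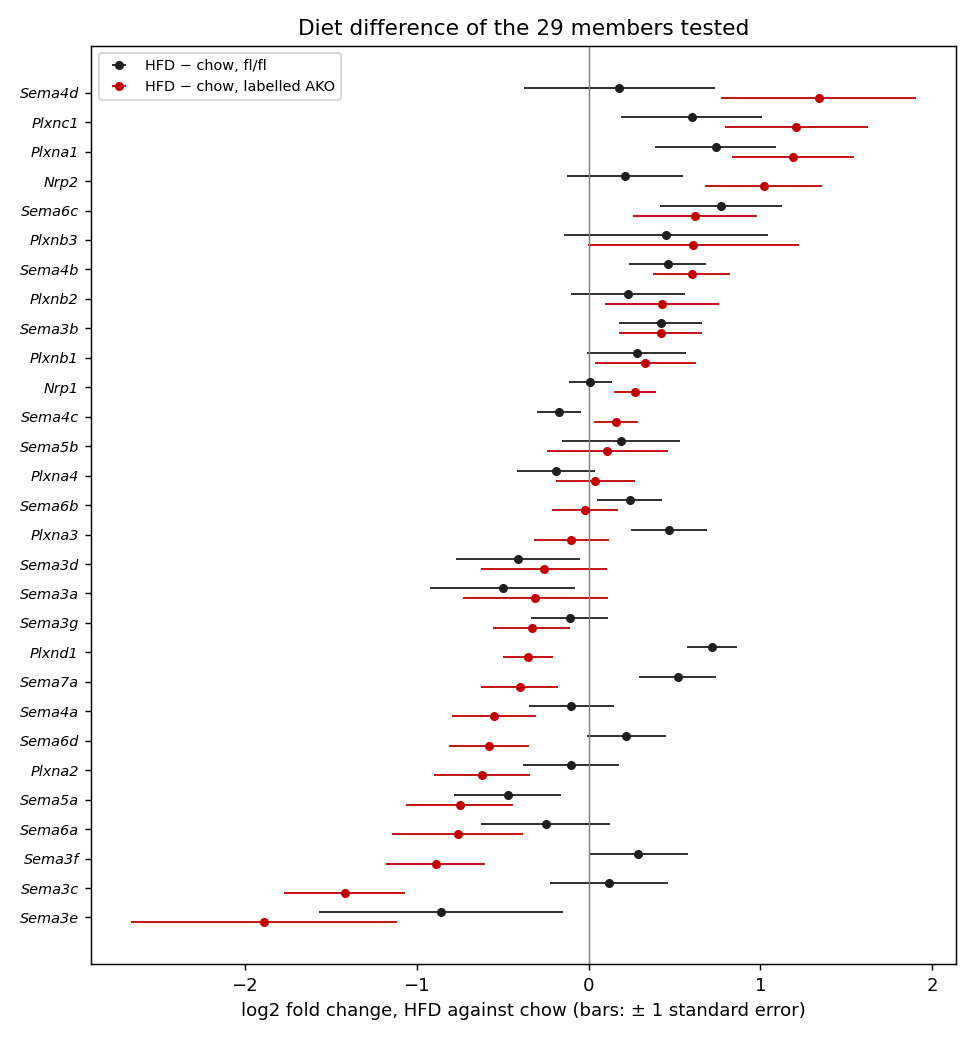
Log2 fold change of HFD against chow for the 29 members tested in Lama4 fl/fl mice (black) and in mice labelled Lama4 AKO (red), with bars of 1 standard error. Plxnd1, Sema7a and Sema3f have black points to the right and red points to the left of 0, and Sema3c is near 0 in Lama4 fl/fl (0.12) and at -1.42 in Lama4 AKO.

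Some cell type markers also differed in the same comparison, where 39.8% of all genes had an unadjusted p of at most 0.05. In mice labelled Lama4 AKO the summed adipocyte markers were between 5180 and 21000 CPM on chow and between 3630 and 8550 CPM on HFD, and 9 of 10 were lower at p of at most 0.05. Macrophage markers summed to 2580 to 9190 CPM on chow and 7840 to 13700 CPM on HFD. Of these 3 of 10 were higher, a share below that of all genes. Endothelial markers summed to 507 to 1080 and 380 to 747 CPM, with 8 of 10 lower, and stromal progenitor markers to 4890 to 8340 and 6790 to 8790 CPM, with 6 of 10 higher. Mesothelial markers summed to 38.5 to 224 and 13.4 to 82.8 CPM, with 5 of 9 lower. In bulk tissue fewer cells of a type and less RNA per cell cannot be told apart, and the part of these cells in the differences of the members was not tested.

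In Lama4 fl/fl mice 6 of 29 members had an unadjusted diet p of at most 0.05, all higher on HFD, against 9.01% of all genes, and 1 of 29 (Plxnd1) was called against 0.173%. Beside Plxnd1 and Sema7a these were Sema6c at 0.77 ± 0.354 (SE), Plxna1 at 0.74 ± 0.352, Plxna3 at 0.47 ± 0.22 and Sema4b at 0.46 ± 0.222, with edgeR adjusted p between 0.533 and 0.547. The HFD-fed Lama4 fl/fl mice set apart on the first component differed in many members: Plxna1 was at 39.8, 31.8 and 33.6 CPM in mice 3, 4 and 6 and at 124, 104 and 71.3 CPM in mice 1, 2 and 5. The 5 libraries hold 3 mice of this group, and without them Plxna1 and Sema4b were at 1.52 and 1.02, both called, and Sema3c was at -0.83 in place of 0.12. Sema7a (0.57) and Plxna3 (0.22) then no longer had an unadjusted p of at most 0.05. The called share of all genes without the 5 libraries was 11.8%. Of 10 adipocyte and 10 macrophage markers, none and 1 had a p of at most 0.05 in this comparison with all libraries. That macrophage marker was lower on HFD. Of 10 endothelial and 10 stromal progenitor markers 1 and 2 were higher, and of 9 mesothelial markers none passed.

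Averaged over genotypes, 9 of 29 members had an unadjusted diet p of at most 0.05, 6 higher and 3 lower on HFD, against 35.5% of all genes. An adjusted p of at most 0.05 was reached by 3 of 29 against 12.4%, and 1 of 29 was called against 2.25%. Plxna1 was called at 0.97 ± 0.25 (SE; 1.95-fold, edgeR adjusted p = 0.0263). The call was lost without any 1 of 14 mice (chow-fed Lama4 fl/fl mice 1, 4, 5 and 6, chow-fed Lama4 AKO mice 1 to 4, HFD-fed Lama4 fl/fl mice 1, 2 and 5, and HFD-fed Lama4 AKO mice 2, 4 and 5), which gave 0.83 to 0.97, and the adjusted p passed 0.05 without HFD-fed Lama4 fl/fl mouse 1 (0.0536). Sema4b and Plxnc1 rose by 0.53 ± 0.157 and 0.91 ± 0.292 (edgeR adjusted p = 0.0359 and 0.0457), while limma-voom gave adjusted p = 0.0713 for Plxnc1. The edgeR adjusted p of Sema4b passed 0.05, up to 0.0724, without any mouse other than Lama4 fl/fl 3 and Lama4 AKO 5 and 6 on chow, and Lama4 fl/fl 2, 3, 4 and 6 and Lama4 AKO 3 and 6 on HFD. That of Plxnc1 passed 0.05, up to 0.106, without any mouse other than Lama4 fl/fl 3 and Lama4 AKO 5 and 6 on chow, and Lama4 fl/fl 3, 4 and 6 and Lama4 AKO 6 on HFD. Sema4b was called with mouse 3 of either Lama4 fl/fl group left out (0.62 and 0.59) and Plxnc1 without HFD-fed Lama4 fl/fl mouse 4 (1.01). Sema6c, Nrp2 and Sema3b at 0.70, 0.61 and 0.42 and Sema3e, Sema3c and Sema5a at -1.37, -0.65 and -0.61 had an unadjusted p of at most 0.05 and adjusted p between 0.0617 and 0.0866. The number called was 8 of 29 without the 5 libraries, where 21.4% of all genes were called: Plxna1, Nrp2, Plxnc1 and Sema4b higher, and Sema3c, Sema3e, Sema6a and Plxna2 lower.

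On HFD no member was called between genotypes by edgeR, against 0.173% of all genes, nor by limma-voom or DESeq2, and 3 of 29 had an unadjusted p of at most 0.05, against 14.8%. These were Sema3c at -1.01 ± 0.348 (SE), Sema4c, a ligand of plexin B2, at 0.37 ± 0.128 and Plxnd1, with edgeR adjusted p between 0.291 and 0.309. Sema3c was at 19.2, 40.2 and 80.9 CPM (lowest, median, highest) in HFD-fed Lama4 fl/fl mice, the 3 highest being mice 3, 4 and 6. The difference of Sema3c without the 5 libraries was -0.16 ± 0.302. Sema4c was at 14.4, 16.1 and 18.9 CPM in Lama4 fl/fl and 16.5, 21.2 and 24.4 CPM in Lama4 AKO mice, and its difference without the 5 libraries was 0.33, with that of Plxnd1 at -0.35. None of the 3 then had an unadjusted p of at most 0.05. At an unadjusted p of at most 0.05, 5 of 10 adipocyte markers were lower and 1 of 10 macrophage markers higher in Lama4 AKO mice in this comparison, and their part in these differences was not tested.

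Partners of the family were counted from lists of co-receptors, with 16 genes tested, and of cytoskeletal effectors and kinases, with 17 genes tested. In mice labelled Lama4 AKO 3 co-receptors were higher and 4 lower on HFD at an unadjusted p of at most 0.05, with none called, against 39.8% and 4.12% of all genes in that comparison. Of the effectors and kinases 8 were higher and 5 lower, and 1 was called higher and 2 lower, against the same shares of all genes. Mical2, which oxidises and severs actin filaments, was higher at 1.16 ± 0.298 (SE, edgeR adjusted p = 0.0191). The kinase Gsk3b was lower at -0.59 ± 0.152 (edgeR adjusted p = 0.0187), and Rock2, a kinase that acts on the actin cytoskeleton, at -1.13 ± 0.299 (edgeR adjusted p = 0.0207). Rock2 was outside the 5 signalling genes of lowest p and is named after its values were seen. Averaged over genotypes L1cam, a co-receptor for Sema3a, was called higher at 0.80 ± 0.194 (edgeR adjusted p = 0.0232), and no gene of the other list was called. With genotypes averaged 2.25% of all genes were called. In the other 4 comparisons no gene of either list was called by edgeR. At an unadjusted p of at most 0.05 there was 1 higher of each list for diet in Lama4 fl/fl, against 9.01% of all genes. For genotype on chow there was 1 higher effector, against 5.85%. For genotype on HFD there were 1 lower co-receptor, 1 higher effector and 3 lower effectors, against 14.8%. For the interaction there were 1 higher and 1 lower co-receptor and 1 higher and 2 lower effectors, against 15.6%. Of 5 vascular endothelial growth factor ligands, which compete for neuropilins, 3 were lower on HFD in Lama4 AKO mice at an unadjusted p of at most 0.05, against the same 39.8% of all genes, and 0 in Lama4 fl/fl mice, against 9.01%. That difference between genotypes was not tested for the list.

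To see which members varied with which cells among mice of the same group, group means were subtracted and each member was related to the mean log2 CPM of 5 marker lists, with 161 relations in all counting 16 ligand and receptor pairs. In 61 of the 161 the Benjamini-Hochberg adjusted permutation p of Pearson's r was at most 0.05. The share of all genes tested that would pass with the same lists was not computed. The counts past the threshold, here and below, therefore do not show a trait particular to the family. The points are 24 whole-tissue libraries, so a member and a list share the library, and the lists are not independent of each other: across mice r was -0.93 between adipocyte and macrophage lists and 0.92 between adipocyte and endothelial lists. Values given here as p = 1e-05 are the smallest that 100000 permutations can give.

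Sema4d, Nrp2 and Plxnb2 were highest in mice with high macrophage markers. Sema4d had r = 0.97 (Spearman's ρ 0.93, permutation p = 1e-05 for each), Nrp2 r = 0.94 (ρ 0.90) and Plxnb2 r = 0.93 (ρ 0.92), and r without the 2 mice farthest from the median of the list was 0.95, 0.92 and 0.89. At the other end were Sema3e at r = -0.89 (ρ -0.84), Sema3g, a ligand of neuropilin 2, at -0.85 (ρ -0.73) and Plxna2 at -0.83 (ρ -0.74), which were -0.84, -0.72 and -0.71 without those 2 mice. The adipocyte list gave the mirror image, with the highest r for Sema3c (0.83), Sema3g (0.83) and Sema3e (0.80) and the lowest for Nrp2 (-0.96), Sema4d (-0.94) and Plxnc1 (-0.90). The endothelial list gave the highest r for Sema3c (0.81), Sema3g (0.80) and Sema5a (0.77) and the lowest for Nrp2 (-0.88), Plxna1 (-0.87) and Plxnc1 (-0.82). In these 18 relations the permutation p of r was at most 0.00014 and that of ρ at most 0.00065, and r without the 5 libraries lay between 0.68 and 0.95 or between -0.96 and -0.72.

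The stromal progenitor list had 8 of 29 relations past the threshold, led by Plxnc1 (r = 0.68, permutation p = 0.00411), Plxnb2 (r = 0.66, permutation p = 0.00869) and Sema4d (r = 0.65, permutation p = 0.00467) and, in the other direction, Sema4a (r = -0.74, permutation p = 0.00042) and Sema3g (r = -0.53, permutation p = 0.0153). Their ρ was 0.58, 0.59, 0.55, -0.78 and -0.44, and without the 5 libraries r was 0.41, 0.31, 0.37, -0.61 and -0.27. Of the 8, 3 also had an adjusted permutation p of ρ of at most 0.05. Plxnb2, Sema4d and Sema3g did not reach it (0.0524, 0.0597 and 0.121). The mesothelial list had 4: Sema5a (r = 0.72, ρ 0.75), Sema3d (0.59, ρ 0.62), Sema3a (0.55, ρ 0.48) and Plxnb2 (-0.59, ρ -0.62), with permutation p of r of 0.00021, 0.00405, 0.00959 and 0.00351. Thus Sema3a and Sema3d, class 3 ligands of neuropilin 1, passed the threshold of r with mesothelial markers and with no other list. For Sema3a the adjusted permutation p of ρ was 0.067, above the threshold.

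Plxnd1 passed the threshold with none of the 5 lists. Its r was 0.33 with macrophage markers (permutation p = 0.164), -0.26 with adipocyte markers (permutation p = 0.248), -0.14 with endothelial markers (permutation p = 0.537), -0.37 with mesothelial markers (permutation p = 0.111) and -0.02 with stromal progenitor markers (permutation p = 0.919). Its r with the adipocyte and macrophage lists was -0.50 and 0.53 without the 5 libraries, and without the 2 mice farthest from the median of each list it was -0.02 and 0.02. With mesothelial markers r was -0.60 without the 2 farthest mice. Sema7a likewise passed with none, with r between -0.16 and 0.18.

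**Figure D4:**
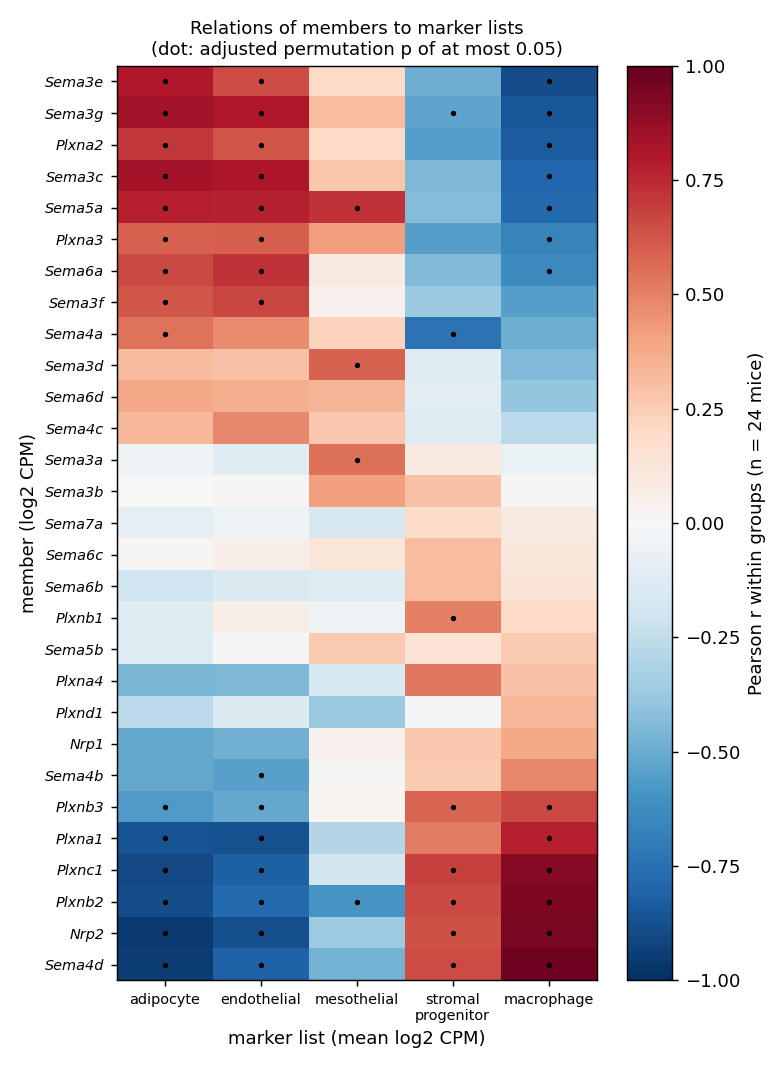
Pearson's r of each of the 29 members tested with the 5 marker lists over 24 mice after subtraction of group means, as a color scale from -1 (blue) to 1 (red); dots mark an adjusted permutation p of at most 0.05. Members at the bottom, from Sema4d (0.97) up to Plxna1 (0.78), are red for macrophage and blue for adipocyte markers, those at the top from Sema3e (-0.89) are the reverse, and Plxnd1 has no dot.

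**Figure D5:**
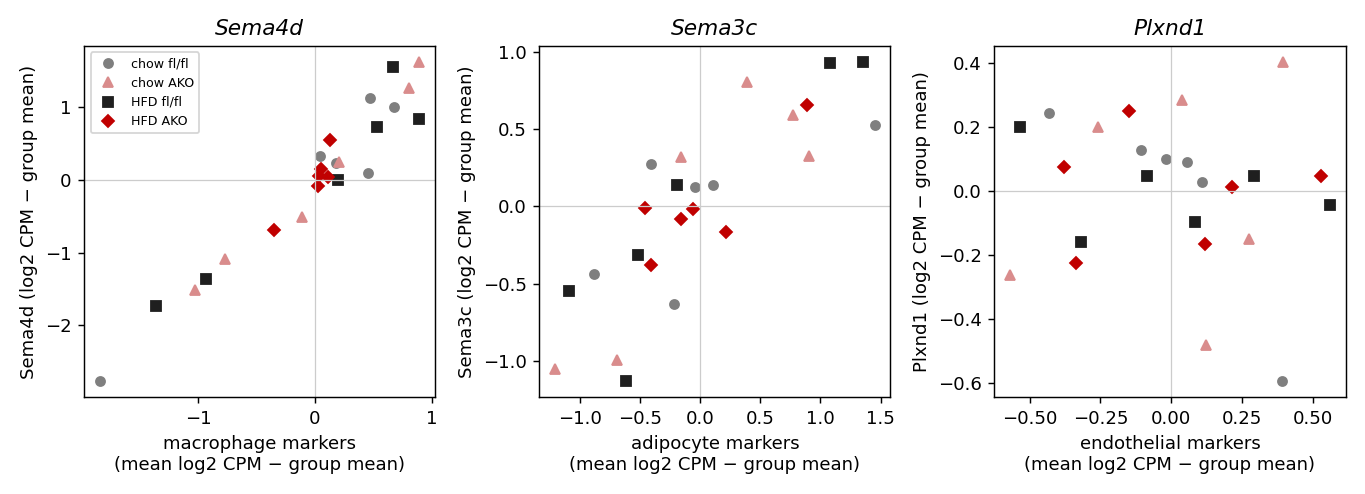
Log2 CPM of Sema4d, Sema3c and Plxnd1 in each mouse against the mean log2 CPM of macrophage, adipocyte and endothelial markers, each minus its group mean; symbols give the group. Sema4d and Sema3c rise along their lists (r = 0.97 and 0.83), and Plxnd1 has no clear slope against endothelial markers (r = -0.14).

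Of the 16 known ligand and receptor pairs, 6 had an adjusted p of at most 0.05. Sema4d and Plxnb2 varied together (r = 0.94, ρ 0.89), as did Sema6a and Plxna2 (r = 0.67, ρ 0.59). Nrp2 varied against its 3 class 3 ligands, with r = -0.91 for Sema3c (ρ -0.92), -0.79 for Sema3g (ρ -0.76) and -0.59 for Sema3f (ρ -0.59). Plxna1 varied against Sema5a (r = -0.69, ρ -0.69). Members of these pairs also varied with the marker lists. Sema4d and Plxnb2 had r = 0.97 and 0.93 with macrophage markers, and Nrp2 and Sema3c r = -0.96 and 0.83 with adipocyte markers. The part of the markers in the pair relations was not tested. With the 5 libraries left out Sema6a and Plxna2 were at r = 0.23 and the other 5 pairs between -0.80 and 0.91.

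For plexin D1 none of 3 ligands passed. Plxnd1 with Sema3e gave r = -0.47 (ρ -0.34, permutation p = 0.0448, adjusted p = 0.0890), which was -0.19 without the 2 mice farthest from the median of Plxnd1 and -0.69 without the 5 libraries, so that its size depends on which mice are included. Plxnd1 gave r = -0.10 with Sema3c and -0.07 with Sema4a. The remaining 7 pairs, which were Sema3a and Sema3c with Nrp1, Sema4d with Plxnb1, Sema4c with Plxnb2, Sema6b with Plxna4, Sema6d with Plxna1 and Sema7a with Plxnc1, had r between -0.48 and 0.19.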

How the data were processed

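RNA from whole eWAT of 24 mice, 1 library per mouse, was measured by QuantSeq 3′ sequencing. Alignment and counting by the authors used Lexogen's QuantSeq pipeline and GRCm38 (mm10), and the deposited table holds raw counts per gene, each gene with at least 72 counts in total. The second deposited table holds a signal that the authors obtained by dividing these counts by 1 size factor per library, and only its gene symbols and positions were used. The submitters' processing notes also name R 4.0.3 and DESeq2 1.30.

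Genes that reached 1 CPM in 3 or more libraries were tested with the quasi-likelihood test of edgeR 4.0.16 (R 4.3.3) with TMM factors, all 24 libraries and 1 coefficient per group, and adjusted by the Benjamini-Hochberg method over 15020 genes. Levels and relations used log2 CPM with a prior count of 2. Single values were compared by exact permutation tests, and relations by 100000 permutations within groups. Genes were described where called or at an unadjusted p of at most 0.05, and Plxnd1 throughout. From the signalling lists at most 5 called genes per comparison were named by lowest p (1 of these lists is not reported here), and from each marker list the 3 highest and 3 lowest relations past the threshold. The fitting script was tested on simulated data. Alternatives were limma-voom (limma 3.58.1), DESeq2 1.42.0, RLE size factors, no filter, a replicate block, only the groups compared, other thresholds, and fits without each mouse or without the 5 libraries. The members and lists were chosen with earlier results of these data known, and the exact test without the 5 libraries was added after seeing the data. Library totals set the counting precision: members had 0 to 10188 counts in a library, and floors cover counting error only.

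Counting by strand is not given in the sources used here. The 3′ end of Plxna1 lies within 1000 bases of Gm26811 on the opposite strand, a gene with no row in the count table, so its reads may be shared. The replicates are separate mice, and the 60 pairs of libraries within a group had r between 0.884 and 0.984, with none identical.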

Additional observations from a re-analysis of the deposited data

Results flagged for a closer look

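In 7 of the 116 sets of 6 mice examined (29 members in 4 groups) the highest or lowest mouse stood apart by Dixon's ratio, whose critical value is 0.625 for 6 values, and chance gives about 1 in 20. Of these, 4 were the lowest values of chow-fed Lama4 fl/fl mouse 1: Plxnd1 at 4.36 log2 CPM (next mouse 4.98), Plxnb2 at 5.04 (next 6.25), Plxnc1 at 2.33 (next 3.82) and Sema4d at 1.58 (next 4.43). The same mouse had the lowest macrophage marker mean of its group, 1.84 below the group mean on the log2 scale, and the part of this in the 4 values was not tested. Without it the called differences of Plxnd1 were still called.

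The highest of 6 stood apart for Sema3c in HFD-fed Lama4 AKO mouse 6 (5.20 log2 CPM, next 4.53), for Sema4b in chow-fed Lama4 fl/fl mouse 3 (4.20, next 3.41), which is 1 of the 5 libraries that an earlier analysis took as removed, and for Sema6b in chow-fed Lama4 AKO mouse 4 (4.07, next 3.36).

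The diet difference of Plxnd1 differed between genotypes by the interaction term, at -1.08 (SE 0.206) on the log2 scale.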

How the results depend on the processing

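All 1291 alternative values kept their sign for the 46 differences that were called, had an unadjusted p of at most 0.05 or were of Plxnd1. Most of the 46 were selected by a low p in the main fit, which makes a kept sign likely. Sema3c for diet in Lama4 fl/fl, which was none of these, went from 0.12 to -0.83 without the 5 libraries. Signs of other members outside the 46 changed too. For genotype on HFD these included Sema3e (-1.32 to 0.24), Sema6a (-0.40 to 0.52) and Plxnc1 (0.30 to -0.32). Members called for diet in Lama4 AKO mice were 1 in the edgeR fit with all libraries, 0 by limma-voom, 2 by DESeq2, 2 with only the groups compared, 5 without the 5 libraries, 5 at an adjusted p of at most 0.05, 14 at an unadjusted p of at most 0.05, and 0 to 2 leaving out each mouse. For diet in Lama4 fl/fl mice 1 was called, with 3, 0 and 6 without the 5 libraries, at the adjusted and at the unadjusted p, and 1 to 1 leaving out each mouse. For genotype on chow it was 1, with 0 and 4 at the adjusted and unadjusted p and 1 to 1 leaving out each mouse. For genotype on HFD it was 0, with 3 at the unadjusted p and 0 to 0 leaving out each mouse. For the interaction it was 1, with 0 and 5 at the adjusted and unadjusted p and 1 to 1 leaving out each mouse. For diet averaged over genotypes it was 1, with 8 without the 5 libraries, 3 and 9 at the adjusted and unadjusted p, and 0 to 2 leaving out each mouse. Over all 15020 genes, diet in Lama4 AKO mice had 604 called by limma-voom and 1315 by DESeq2. With only the groups compared 1388 of 14531 genes were called for it. Leaving out each mouse gave 299 to 1169 genes for diet in Lama4 AKO and 204 to 691 for diet averaged over genotypes. Over all genes the 5 libraries moved the called number from 26 to 1750 for diet in Lama4 fl/fl, from 619 to 2332 for diet in Lama4 AKO and from 338 to 3186 for diet averaged over genotypes. The cause of these changes was not tested. Relations past the adjusted threshold were 61, with 64 under RLE size factors, 44 without the 5 libraries and 49 to 66 leaving out each mouse.

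The replicate numbers did not pair the mice. The 36 correlations of same-numbered mice lay between -0.534 and 0.714 (median 0.001, against -0.01 for other numbers), and 5 of 24 mice correlated best with their own number. With the replicate block the called number was 0 for diet in Lama4 AKO and 0 for diet averaged over genotypes, and 1, 1, 0 and 1 as before in the other comparisons. Of all 15020 genes 457 were then called for diet in Lama4 AKO and 254 for diet averaged over genotypes. The adjusted p under the block was 0.0573 for Nrp2 and 0.0806 for Plxnc1 for diet in Lama4 AKO, and 0.0536, 0.0538 and 0.108 for Plxna1, Sema4b and Plxnc1 averaged over genotypes. Depth limits Sema3e, Sema4f, Sema4g and Plxnb3, which had 0 to 2 counts in at least 1 library.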
